A study of Mus musculus with 15 samples.

Results

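The tumor necrosis factor (TNF) superfamily ligands and receptors were followed across mouse kidney and lung libraries of a study on a leptin-neutralizing antibody. The members were chosen by name and gene class, with earlier results of these data known. They were 43 protein-coding genes out of 56748 genes in the table, 21970 of them protein-coding. All numbered Tnfsf and Tnfrsf symbols were taken. So were the family members with older names (Tnf, Lta, Ltb, Ltbr, Fas, Fasl, Cd27, Cd40, Cd40lg, Cd70, Eda2r and Edar). There were 17 ligands, 6 receptors with a death domain, 16 receptors that bind TRAF adaptors and 4 decoy or soluble receptors. TNF superfamily ligands are mostly trimeric membrane proteins of immune and stromal cells, and some are released by the protease ADAM17. Their receptors recruit TRAF adaptors or, through a death domain, TRADD and FADD, and so feed into NF-kB, JNK and cell death pathways. In injured kidney and lung the family is best known for inflammation (TNF and its receptors), B cell survival (BAFF and its receptors), T cell costimulation, and the TWEAK receptor Fn14 of damaged epithelium.

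All mice were male wild-type C57Bl/6, and each of 5 groups held 3 libraries. WTK kidneys came from mice given vehicle, for which the labels name no antibody. IgGK and LepK kidneys came from mice injected with a single dose of folic acid at 200 mg/kg, a model of tubular injury and fibrosis, at 10 to 12 weeks of age, and treated from day 1 with control IgG or with LepAb, which neutralizes leptin, for 21 days at 10 mg/kg, before euthanasia at day 28. IgGL and LepL lungs came from 12-week-old mice given bleomycin at 1.5 units/kg into the trachea and the same antibodies at the same dose for 14 days, with euthanasia at day 14. No vehicle lung was analysed here, so the lung comparison has no uninjured reference. The sources used here do not say whether libraries of a group came from separate cages or days, so p-values measure the spread between these libraries.

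Libraries held 25913969 to 38924788 counts, and TMM factors ran from 0.844 to 1.176 in kidney and from 0.965 to 1.023 in lung. Defining markers matched the tissue labels: the summed level of 8 kidney tubule markers was 5445 to 17520 normalised CPM (counts over TMM-scaled library size, as CPM) in kidney against 30.1 to 158.8 in lung, and the surfactant gene Sftpc was at 0 counts in every WTK and LepK library. These are whole tissues, so fewer cells of a type and less RNA per cell cannot be told apart in any value below. Markers of other cells moved with the groups. The 10 macrophage markers summed to 233 to 260 in WTK, 862 to 1093 in IgGK and 427 to 558 in LepK, and 9 of 10 were called higher in IgGK than in WTK and 8 of 10 lower in LepK than in IgGK. All 10 T cell markers were called higher in IgGK than in WTK (summed 9.51 to 13.9 against 47.4 to 84.1), and 1 of 10, Cd3d, lower in LepK than in IgGK (37.9 to 51.6). In lung, macrophage markers summed to 1669 to 2201 in IgGL and 945 to 1369 in LepL, while T cell markers summed to 26.3 to 70.7 and 58.2 to 104.1. The 10 neutrophil markers summed to 184 to 479 in IgGL and 71.2 to 111 in LepL, and the 10 fibroblast markers to 7675 to 8755 and 3524 to 4789; 5 of each list and 3 of 10 macrophage markers were called lower in LepL. The IgGL library 1 lay apart from the other IgGL libraries in T cell markers (70.7 against 31.2 and 26.3) and in B cell and plasma cell markers (162 against 53.7 and 84.8), and IgGL library 3 in neutrophil markers (479 against 184 and 218). In kidney 3 more lists were ordered alike, with neutrophil, fibroblast and injured tubule markers each higher in all IgGK libraries than in any WTK or LepK library; Ly6g and Camp of the neutrophil list were at 0 counts in all WTK and IgGK libraries. The part of these cells in the results on ligands and receptors was not tested.

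**Figure D1:**
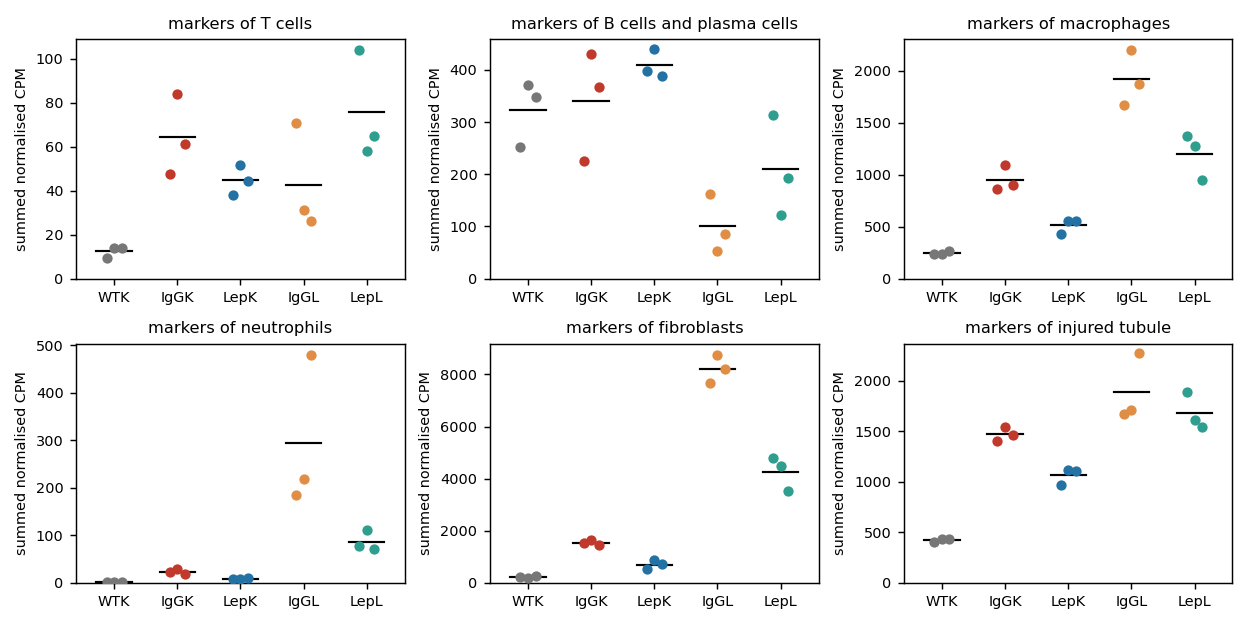
Summed normalised CPM (counts scaled by TMM library size) of 6 marker lists in each library of the 5 groups; points are libraries and bars are group means. Macrophage markers lie between 862 and 1093 in IgGK and between 427 and 558 in LepK, and the IgGL library with the highest T cell sum, 70.7, lies among the LepL libraries.

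Levels per gene length put a small set of receptors above the rest of the family in kidney. On RPKM values (normalised CPM per kilobase of the gene length in the table), the highest member of all 3 kidney groups was Tnfrsf21, death receptor 6, at a mean of 123 in WTK, 65.7 in IgGK and 83.2 in LepK. Ltbr, the lymphotoxin beta receptor, and Tnfrsf1a, the main TNF receptor of most cells, followed, at 38.3 and 19.7 RPKM in WTK and at 32.5 and 36.4 in IgGK. The ligands with the highest kidney level were Tnfsf10 (TRAIL), at 18.1 RPKM in IgGK, and Tnfsf12 (TWEAK), at 12.1. In lung the order opened with Tnfrsf1a, at 108 RPKM in IgGL and 71.6 in LepL, and Tnfrsf12a (Fn14, the TWEAK receptor), at 95.5 and 49.8. At the other end, Cd70 had 0 counts in all kidney libraries, and Tnfsf4 (OX40 ligand) and Tnfsf18 (GITR ligand) had 3 and 7 counts over all 9. These 3 ligands were not tested in kidney, which left 40 members there. In lung 41 members were tested, without Cd40lg and Cd70.

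**Figure D2:**
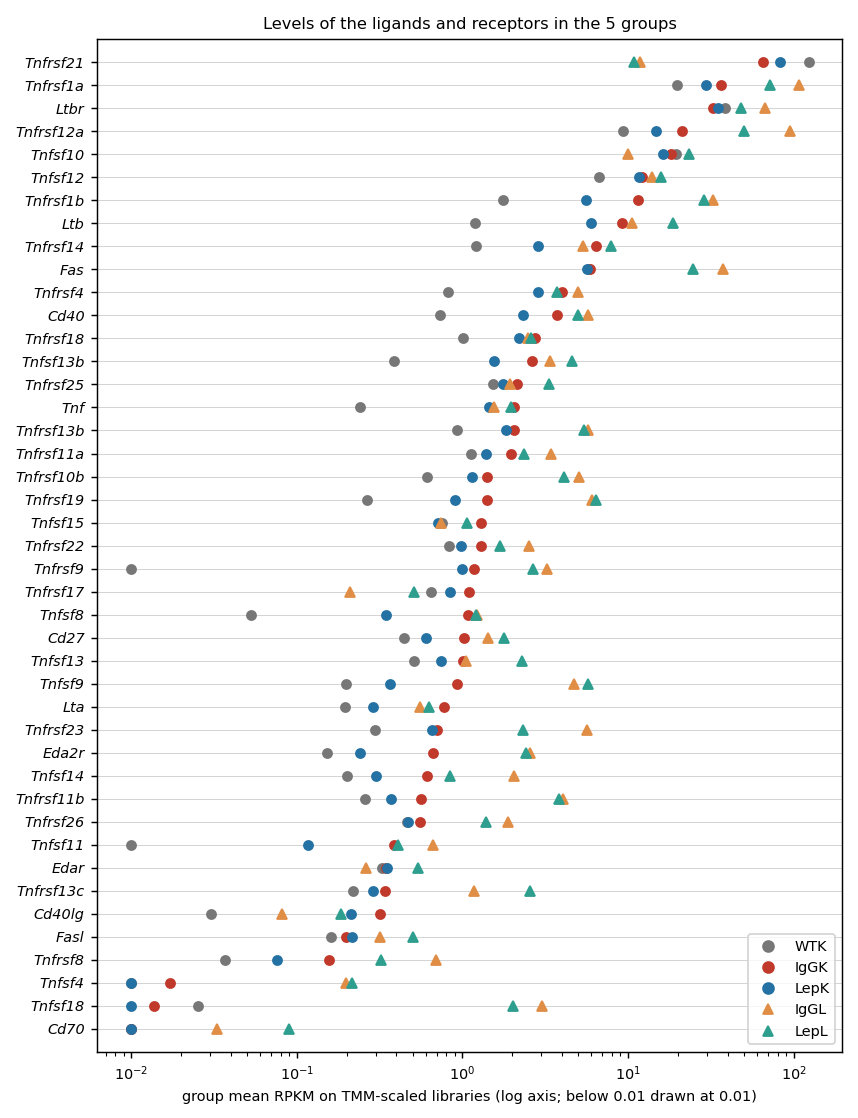
Group mean RPKM (per kilobase, on TMM-scaled libraries, log axis) of the 43 members, ordered by their IgGK mean; circles are kidney groups and triangles lung groups, and means below 0.01 are drawn at 0.01. Tnfrsf21 leads in kidney (65.7 in IgGK) and Tnfrsf1a in lung (108 in IgGL).

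The first question was what the leptin antibody did to the family in the injured kidney. In LepK against IgGK, 8 of 40 tested members (20%) were called lower and 0 higher, where called means an absolute log2 fold change above 0.5 and a Benjamini-Hochberg adjusted p under 0.05 over all genes in edgeR's quasi-likelihood test. Over all 19593 genes tested, 5.99% were called lower and 4.38% higher. At an unadjusted p under 0.05, 12 members were lower and 1 was higher, beside 16.1% and 16.7% of all genes. DESeq2 called 9 members lower and 0 higher, beside 7.06% and 4.84% of all genes. The members' median log2 fold change was -0.49, beside -0.01 for all genes, and 36 of 40 had a negative value. Of the members, 17 had all 3 LepK libraries below all 3 IgGK libraries and 0 had the reverse, where 19.5% of all genes tested were lower and 17.8% higher without overlap. The called members were the ligands Tnfsf8, Tnfsf13b and Tnfsf15 and the TRAF-binding receptors Tnfrsf1b, Tnfrsf11a, Tnfrsf12a, Tnfrsf19 and Eda2r; the only members above 0 were Fasl, Edar, Ltbr and Tnfrsf21, none of them called, and the first 3 of these were below 0 when libraries were scaled by their totals alone. The count of 8 was 2 without IgGK library 2, 3 without LepK library 1, 4 without IgGK library 3 and 5 without WTK library 3, IgGK library 1 or LepK library 3. Without IgGK library 2, 3.47% of all genes tested were called lower and 3.13% higher. These shares were 3.50% and 2.94% without LepK library 1, and 4.81% and 4.36% without IgGK library 3. They were 5.56% and 4.02% without WTK library 3, 4.79% and 4.92% without IgGK library 1, and 5.11% and 4.34% without LepK library 3. Without LepK library 2, 6 members were called lower and 1, Tnfrsf21, higher, beside 6.28% and 4.89% of all genes tested.

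Tnfrsf1b, TNF receptor 2 (chr4:144940033-144973440 on GRCm39, minus strand), binds membrane TNF and is found mainly on leukocytes and endothelium. It measured 38.1, 49.8 and 43.8 normalised CPM in IgGK and 18.1, 24.6 and 21.3 in LepK, against 5.40, 6.28 and 8.33 in WTK. The 3 groups did not overlap, with LepK between the others. The log2 fold change of LepK against IgGK was -1.04 (SE 0.15, edgeR adjusted p = 0.000755), a fall to 0.486 of the IgGK level, and the call was kept in all 17 alternative settings.

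Among ligands, Tnfsf13b (chr8:10056467-10089072) encodes BAFF, the survival factor of B cells, which is made largely by myeloid and stromal cells. Its values were 15.2, 20.9 and 17.8 normalised CPM in IgGK and 8.13, 12.8 and 11.2 in LepK, with WTK at 2.53, 2.76 and 2.71. Every LepK library lay below every IgGK library and above every WTK library. The log2 fold change was -0.75 (SE 0.17, edgeR adjusted p = 0.00847), and this call too was kept in all 17 settings. For the receptors of BAFF and APRIL, Tnfrsf13b (TACI), Tnfrsf13c (BAFF receptor) and Tnfrsf17 (BCMA), the log2 fold changes were -0.15, -0.23 and -0.38, with SEs of 0.21, 0.82 and 0.49, none called. Of 10 B cell and plasma cell markers, edgeR and DESeq2 called 0, with 1 at an unadjusted p under 0.05.

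Tnfsf8 (chr4:63749545-63779584), CD30 ligand, an activating signal between T cells and other leukocytes, had 2.97, 5.37 and 3.99 normalised CPM in IgGK, 1.09, 1.44 and 1.44 in LepK and 0.0415, 0.237 and 0.325 in WTK. Again the groups were apart with LepK in the middle. This was the greatest fall of the 8 called members, at a log2 fold change of -1.64 (SE 0.38, edgeR adjusted p = 0.0103); without IgGK library 2 it was no longer called. Its receptor Tnfrsf8 (CD30) was low, at 0.132 to 0.780 normalised CPM in IgGK and 0.0988 to 0.517 in LepK, and was not called.

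Tnfsf15 (chr4:63642840-63663350, the neighbour of Tnfsf8), or TL1A, a largely endothelial and myeloid ligand of the death domain receptor DR3, stood at 7.32, 7.63 and 7.75 normalised CPM in IgGK and at 3.72, 4.26 and 4.50 in LepK. The WTK libraries were spread from 2.62 to 6.75 and overlapped LepK, while IgGK lay above both. The log2 fold change of LepK against IgGK was -0.86 (SE 0.27, edgeR adjusted p = 0.0420), a call that was lost in 7 of the 9 fits without 1 library. Its receptor Tnfrsf25 (DR3) had a log2 fold change of -0.29 and was not called.

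Fn14, the product of Tnfrsf12a (chr17:23894419-23896442), is the receptor of TWEAK and is induced in damaged tubules. Tnfrsf12a measured 39.8, 44.5 and 38.5 normalised CPM in IgGK, 27.6, 31.4 and 26.9 in LepK and 19.7, 17.1 and 17.1 in WTK, with no overlap between groups. The log2 fold change of -0.52 (SE 0.09, edgeR adjusted p = 0.00235) lay close to the threshold of 0.5, and the call was lost in 3 of 9 fits without 1 library. Its ligand Tnfsf12 overlapped between the groups, with 16.5 to 19.6 in IgGK and 15.3 to 19.2 in LepK.

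The remaining 3 receptors lay nearer to a threshold. Eda2r (chrX:96377446-96420822), the receptor of ectodysplasin A2 and a known p53 target, fell from 3.92, 5.06 and 2.78 normalised CPM in IgGK to 0.856, 2.01 and 1.40 in LepK, a range that overlapped WTK (0.249, 1.42 and 1.01). Its log2 fold change was -1.46 (SE 0.47, edgeR adjusted p = 0.0460), and the call was lost in 6 of 9 fits without 1 library. Of 10 p53 targets, 20% were called lower, beside 5.99% of all genes. They were the cell cycle inhibitor Cdkn1a and Phlda3, at log2 fold changes of -0.85 and -0.60. The median of the list was -0.16. Sesn2 went the other way without a call, at 51.8 to 54.05 normalised CPM in LepK against 33.2 to 41.4 in IgGK. A link of Eda2r to p53 was not tested.

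Tnfrsf19 (TROY, chr14:61201324-61283939), a receptor of epithelial and neural progenitors, stood at 6.66, 6.63 and 6.59 normalised CPM in IgGK, 3.26, 5.13 and 4.47 in LepK and 1.12, 1.22 and 1.41 in WTK. The groups did not overlap, but the edgeR adjusted p for a log2 fold change of -0.63 (SE 0.21) was 0.0499, and the call was kept in 7 of 17 alternative settings. Tnfrsf11a (RANK, chr1:105708443-105775709), the receptor that drives osteoclast formation, measured 13.1, 11.4 and 11.0 in IgGK, 8.13, 7.44 and 9.42 in LepK and 7.31, 7.30 and 5.66 in WTK. Its log2 fold change was -0.51 (SE 0.15, edgeR adjusted p = 0.0308), just past the fold threshold, and the call was lost in 5 of 9 fits without 1 library.

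**Figure D3:**
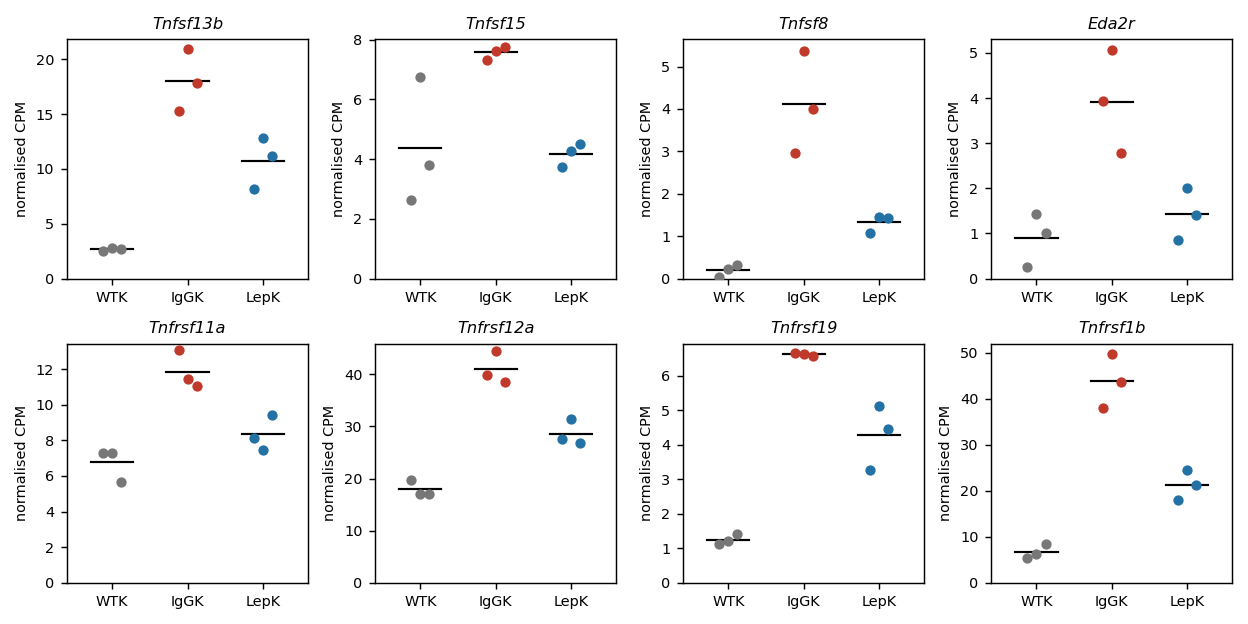
Normalised CPM in each of the 9 kidney libraries for the 8 members called lower in LepK than in IgGK; points are libraries and bars are group means. All LepK points lie below all IgGK points, and for Tnfrsf1b the LepK libraries (18.1 to 24.6) also lie above all WTK libraries.

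Members just outside the call included the TNF receptor Tnfrsf1a and the costimulatory receptors Cd40 and Tnfrsf14. Tnfrsf1a measured 93.3, 99.6 and 89.6 normalised CPM in IgGK and 75.6, 78.7 and 76.1 in LepK. The groups were apart and the adjusted p was 0.00485 in edgeR, yet the log2 fold change of -0.30 did not reach 0.5. Cd40, which receives T cell help on B cells and macrophages, had a log2 fold change of -0.69 (edgeR adjusted p = 0.0535) and overlapped, with 8.87 to 15.4 in IgGK and 6.77 to 9.45 in LepK; it was called in 6 of 17 alternative settings, DESeq2 and the replicate block among them. For Tnfrsf14 (HVEM) the log2 fold change was -1.17 (edgeR adjusted p = 0.0757), with LepK library 3 at 7.27 beside 2.24 and 2.75, and it was called in 4 settings, among them the block and the fit without that library. Tnf itself had 2.70, 3.60 and 3.76 in IgGK and 1.51, 3.65 and 1.96 in LepK, which overlapped (log2 fold change -0.50, SE 0.44, edgeR adjusted p = 0.472). The lymphotoxins Lta and Ltb had log2 fold changes of -1.42 and -0.63, Tnfsf11 (RANK ligand) -1.73, Tnfsf9 (4-1BB ligand) -1.34 and Tnfsf14 (LIGHT) -1.03, with SEs from 0.37 to 0.77. None of these 5 was called here, but Ltb was called with the replicate block and with no filter on low counts, and Tnfsf9 in a fit of only the groups compared.

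Genes that act below the receptors were read from lists of the pathway. Of 22 adaptors and kinases, 3 were called lower in LepK than in IgGK and 0 higher: Birc3, which encodes the ubiquitin ligase cIAP2 (log2 fold change -0.73), Ripk3, the necroptosis kinase (-0.82), and the adaptor Traf1 (-0.56). Of 10 NF-kB subunits and inhibitors, 4 were called lower: the inhibitors Nfkbia (-0.52), Nfkbie (-0.62) and Tnfaip3 (-0.69) and the subunit Rel (-0.74). The median was -0.10 for the adaptors and -0.47 for the NF-kB list, against -0.01 for all genes, and 13.6% and 40% of these lists were called lower, against the 5.99% of all genes. Of the 3 genes of ligand release (Adam17, Rhbdf1 and Rhbdf2), edgeR and DESeq2 called 0, with 2 at an unadjusted p under 0.05. Eda, Ngfr and Relt, superfamily genes outside the name rule, had log2 fold changes from -0.71 to -0.48 and were not called, with 0 at an unadjusted p under 0.05.

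The same antibody was then compared in bleomycin-injured lung. In LepL against IgGL, 1 of 41 tested members was called lower (2.44%), Tnfrsf1a, and 0 higher, where 2.36% of all 19617 genes tested were called lower and 1.78% higher. The members' median log2 fold change was -0.08. Without overlap between libraries, 10 members were lower and 5 higher in LepL, beside 17.3% and 16.0% of all genes tested. At an unadjusted p under 0.05, 9 members were lower and 4 higher, beside 14.1% and 13.2% of all genes. DESeq2 called 6 members lower and 1 higher on the same 6 libraries, beside 5.65% and 6.33% of all genes. Without IgGL library 1, 17 members were called, 9 lower and 8 higher, where 7.84% of all genes tested were called lower and 9.48% higher. Without any other single library the count was 0, and at most 4 genes were called lower and 18 higher in the whole table.

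Tnfrsf1a (chr6:125326325-125339447), the receptor through which soluble TNF signals, measured 250, 285 and 302 normalised CPM in IgGL and 193, 198 and 166 in LepL. All LepL libraries lay below all IgGL libraries, and the log2 fold change was -0.59 (SE 0.12, edgeR adjusted p = 0.0388), a call that was lost with the replicate block and in 5 of 6 fits without 1 library. Its value in the kidney, -0.30 with SE 0.06, had the same sign, and the difference between the organs was 0.32 (SE 0.13, edgeR adjusted p = 0.148). Of 26 receptors, 9 had every LepL library below every IgGL library and 2 above, beside 17.3% and 16.0% of all genes tested. Of these only Tnfrsf1a passed the adjusted threshold. Fas stood at 43.3 to 58.7 in LepL against 66.2 to 88.0 in IgGL. Tnfrsf12a stood at 81.3 to 107 against 119 to 226, and Tnfrsf23 at 6.35 to 11.9 against 13.0 to 31.7. The log2 fold changes of these 3 were -0.61, -0.94 and -1.30, with edgeR adjusted p of 0.0511, 0.0513 and 0.0579. DESeq2 called all 3 lower. The other lower receptors were Ltbr, Tnfrsf11a, Tnfrsf4, Tnfrsf8 and Tnfrsf22, at log2 fold changes of -0.48, -0.545, -0.41, -1.10 and -0.57. DESeq2 also called Tnfrsf22. Tnfrsf23 and Tnfrsf22 are close neighbours and paralogs (decoy TRAIL receptors), so reads may be split between them and their values are uncertain.

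Ligands showed both directions in lung. Tnfsf10 (TRAIL) had 109, 119 and 140 normalised CPM in LepL and 87.1, 45.0 and 26.8 in IgGL, with the highest IgGL value in library 1 (log2 fold change 1.22, SE 0.35, edgeR adjusted p = 0.0735). Tnfsf14 (LIGHT) ran the other way, at 1.18, 1.87 and 1.59 in LepL and 2.94, 2.81 and 5.55 in IgGL (log2 fold change -1.28, SE 0.36, edgeR adjusted p = 0.0699). The groups did not overlap for either ligand, and edgeR called neither. DESeq2 called Tnfsf14, and both were called with no filter on low counts and without IgGL library 1. The highest Tnfsf14 value, 5.55, came from IgGL library 3, which also held the highest neutrophil sum. Lung epithelial markers, which include surfactant genes, were higher in all LepL libraries (31070 to 48490 summed normalised CPM against 16750 to 22770), with 4 of 8 called; the part of these and of the neutrophil markers in the ligand values was not tested.

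Whether the antibody's effect differed between the organs was tested in a fit of 12 libraries as the kidney difference minus the lung difference. An adjusted p under 0.05 was reached by 5 of 42 tested members, 4 with a lower and 1 with a higher value in kidney, where 7.12% of all genes tested passed. Organ, injury agent, age and day of collection cannot be told apart here. Tnfsf15 fell in kidney, as given above, while in lung it measured 4.43, 3.64 and 4.86 normalised CPM in IgGL and 6.17, 6.37 and 6.15 in LepL. The lung libraries did not overlap, with LepL higher (log2 fold change 0.53, SE 0.21, edgeR adjusted p = 0.143). The difference was -1.37 (SE 0.25, edgeR adjusted p = 0.0139), and it was called in all 18 alternative settings.

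Tnfsf13 (APRIL), a ligand of plasma cell receptors, had 1.58, 1.69 and 1.68 normalised CPM in IgGK and 1.35, 1.11 and 1.18 in LepK, but 1.83, 1.67 and 1.70 in IgGL and 2.91, 4.91 and 3.50 in LepL. The libraries were apart in both organs and in opposite directions. The log2 fold changes were -0.44 (SE 0.33) in kidney and 1.12 (SE 0.29) in lung, neither called by edgeR, though DESeq2 called the lung value. The difference was -1.53 (SE 0.39, edgeR adjusted p = 0.0344) and was called in 6 of 18 alternative settings; it was lost in 10 of 12 fits without 1 library, with the replicate block and with no filter. The spans of Tnfsf13 and its neighbour Tnfsf12 overlap Tnfsf13os and Tnfsfm13 on chromosome 11 (GRCm39). The libraries were not directional, so reads from bases that these genes share cannot be told apart.

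Tnfsf9, the ligand of the T cell receptor 4-1BB, had 1.42, 1.12 and 1.04 normalised CPM in IgGK and 0.494, 0.469 and 0.443 in LepK. Its lung levels overlapped between groups, at 5.46 to 7.19 in IgGL and 5.75 to 8.91 in LepL. The kidney log2 fold change was -1.34 (SE 0.66) and the lung value 0.27 (SE 0.23), each from the fit of its organ and neither called there. The difference, from the separate fit of 12 libraries with its own SE, was -1.57 (SE 0.37, edgeR adjusted p = 0.0266). It was lost in 7 of 12 fits without 1 library. Tnfrsf1b fell in kidney as described above, and in lung measured 130, 126 and 115 in IgGL and 126, 110 and 92.8 in LepL, which overlapped (log2 fold change -0.18, SE 0.13); the difference was -0.84 (SE 0.19, edgeR adjusted p = 0.0244), lost in 6 of 12 such fits.

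Ltbr, the receptor of lymphotoxin and LIGHT on stroma and epithelium, was the member with a difference above 0. In kidney it stood at 81.3, 74.9 and 73.5 normalised CPM in IgGK and 83.7, 84.5 and 78.6 in LepK, which overlapped. In lung it stood at 137, 170 and 164 in IgGL and at 115, 124 and 98.7 in LepL, with no overlap (log2 fold change -0.48, SE 0.13, edgeR adjusted p = 0.0614). The difference was 0.61 (SE 0.15, edgeR adjusted p = 0.0306). The kidney value of 0.10 (SE 0.06) was -0.076 when libraries were scaled by their totals alone, and the difference was not called under that scaling or in 8 of 12 fits without 1 library.

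**Figure D4:**
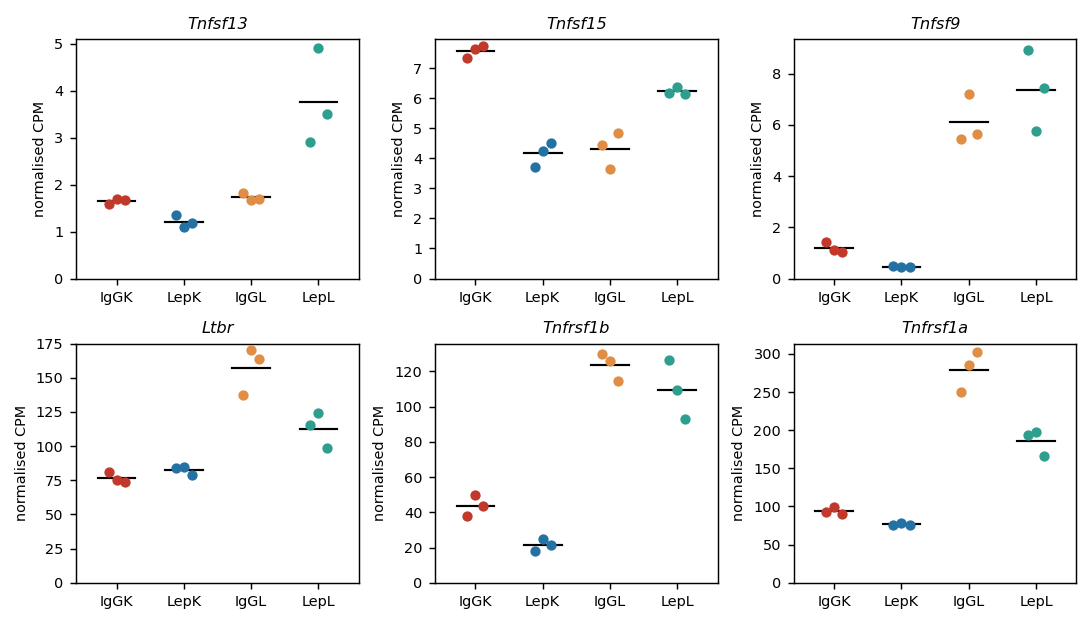
Normalised CPM in the 12 libraries of IgG- and LepAb-treated mice for the 5 members whose antibody effect differed between kidney and lung, and for Tnfrsf1a, the member called in lung; points are libraries and bars group means. Tnfsf15 is lower in all LepK libraries (3.72 to 4.50) and higher in all LepL libraries (6.15 to 6.37) than in the IgG libraries of the same organ.

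The kidney values were also set against mice without folic acid. In IgGK against WTK, 27 of 40 members (67.5%) were called higher and 1 (2.50%) lower, where 21.7% of all genes tested were called higher and 15.6% lower. The members' median log2 fold change was 1.21, against 0.04 for all genes, and was the same with Tnfsf11 at its bound. Libraries did not overlap for 26 members that were higher and 2 that were lower, against 32.5% and 30.1% of all genes tested. By role, 11 of 14 ligands, 12 of 16 TRAF-binding receptors, 2 of 6 death domain receptors and 2 of 4 decoy receptors rose. In LepK against WTK, which shares the WTK libraries, 17 members were called higher and 1 lower, with 15.2% and 7.30% of all genes tested called in these directions, and the median was 0.67. This comparison and LepK against IgGK share libraries with IgGK against WTK, so their values are set side by side without a test of their likeness. With libraries scaled by their totals alone the median of all genes was 0.48 for IgGK and 0.29 for LepK, each set against WTK.

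**Figure D5:**
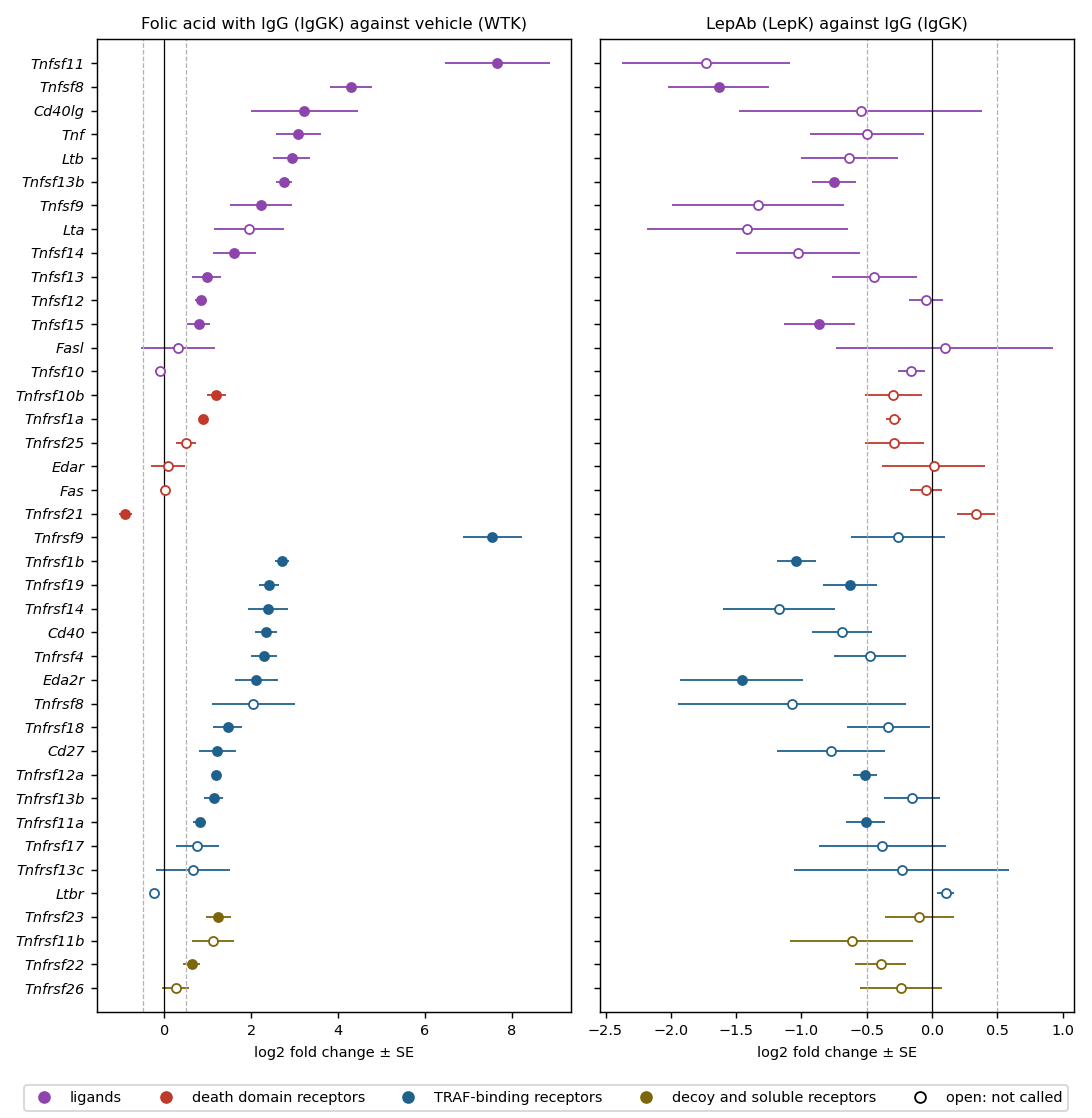
Log2 fold changes with SE for the 40 members tested in kidney, IgGK against WTK on the left and LepK against IgGK on the right; filled points were called, and dashed lines mark the fold threshold of 0.5. On the left 27 members are called above 0, and on the right 8 are called below 0 and 0 above; the panels share the IgGK libraries, and the fitted values of Tnfsf11 and Tnfrsf9 on the left, with 0 counts and 1 count in WTK, depend on the prior count of the fit.

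Tnfrsf9 and Tnfsf11 were close to absent from WTK. Tnfrsf9, the costimulatory receptor 4-1BB, held 1 count over the 3 WTK libraries, 325 in IgGK and 233 in LepK, or 2.34, 3.86 and 3.44 normalised CPM in IgGK and 1.55, 3.42 and 3.10 in LepK. The ratio of IgGK to WTK was 251, with an exact 95% interval for counting error from 44.7 to 9940. Tnfsf11, RANK ligand, had 0 counts in WTK, 85 in IgGK and 22 in LepK, which makes it at least 21.9-fold higher in IgGK and at least 6.48-fold higher in LepK, from a floor of 3 counts over the group. Both genes were at or next to 0 in every WTK library and present in every library after folic acid.

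Other T cell receptors and ligands of the family rose as well. Tnfrsf4 (OX40) measured 0.831, 1.62 and 0.902 normalised CPM in WTK, 4.22, 6.97 and 5.17 in IgGK and 3.33, 4.22 and 4.25 in LepK, and IgGK lay above WTK by 2.29 (SE 0.30, edgeR adjusted p = 3.59e-05) on the log2 scale. Tnfrsf18 (GITR) and Cd27 rose by 1.46 (SE 0.34) and 1.22 (SE 0.42); Cd27 overlapped between the groups, at 1.22 to 3.34 in IgGK and 0.541 to 1.30 in WTK, and its call was lost in 3 of 9 fits without 1 library. Tnfsf9 rose by 2.23 (SE 0.71), lost in 1 of 9, the fit without IgGK library 1. Cd40lg, the CD40 ligand of helper T cells, rested on 40 counts in IgGK and 3 in WTK, a ratio of 10.3 with an exact 95% counting interval from 3.28 to 52.0. Its edgeR adjusted p was 0.0422. Of 9 fits without 1 library the call was kept in 3 and lost in 5, and it was lost with the replicate block. In IgGK against WTK these genes moved with the T cell markers given above, whose part in them was not tested. In LepL against IgGL all 10 T cell markers were above 0, with a median of 0.81. Of these markers edgeR called 0 and DESeq2 1, with 3 at an unadjusted p under 0.05. Libraries did not overlap for 1 of them. There the log2 fold changes of Tnfrsf4, Tnfrsf18, Cd27 and Tnfsf9 were -0.41, 0.05, 0.31 and 0.27, none called. The span from start to end of Tnfrsf18 overlaps that of Gm16008, Cd27 that of Vamp1 and Tnfrsf9 that of Camta1. Such overlaps also held for Tnfsf13b with Gm44789, Tnfrsf19 with Gm41168, Tnfsf9 with Gm11110 and Ltb with Mir6973a. The spans of Tnfrsf22, Tnfrsf23 and Tnfrsf26 overlap E230032D23Rik. Without strand, reads from shared bases cannot be told apart, and whether exons are shared was not checked.

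Myeloid and lymphoid cytokines of the family followed. Tnf, the founding cytokine, rose from 0.748, 0.119 and 0.325 normalised CPM in WTK to 2.70, 3.60 and 3.76 in IgGK, a log2 fold change of 3.08 (SE 0.52, edgeR adjusted p = 0.00025), and was 2.58 (SE 0.52) above WTK in LepK. Ltb, the membrane anchor of lymphotoxin, rose from 0.748, 2.21 and 2.49 to 9.73, 19.2 and 13.2, a log2 fold change of 2.94 (SE 0.43, edgeR adjusted p = 7.96e-05). Neither gene overlapped between WTK and IgGK. Tnfsf8 and Tnfsf13b, whose values stand above, were 19.6-fold and 6.73-fold higher in IgGK and 6.33-fold and 4.01-fold higher in LepK, and Cd40 5.04-fold and 3.13-fold, all of them called. Tnfsf14, Tnfsf13, Tnfsf12 and Tnfsf15 rose by 1.61, 0.97, 0.85 and 0.79, and Tnfrsf13b by 1.14. The calls of Tnfsf13 and Tnfsf15 were each lost in 5 of 9 fits without 1 library, that of Tnfsf13 also with no filter, and that of Tnfsf14 in 2 of 9. Of these, Tnfsf15 had a log2 fold change of -0.08 (SE 0.28) in LepK against WTK.

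The other receptors were compared in the same way. Tnfrsf1b, Tnfrsf19 and Tnfrsf14 were 2.71 (SE 0.17), 2.40 (SE 0.23) and 2.38 (SE 0.46) above WTK in IgGK, and 1.67 (SE 0.16), 1.77 (SE 0.23) and 1.21 (SE 0.46) above it in LepK, where Tnfrsf14 was not called. Eda2r rose by 2.12 (SE 0.49), Tnfrsf12a by 1.19 (SE 0.09) and Tnfrsf11a by 0.81 (SE 0.15); in LepK against WTK the values were 0.66 (SE 0.50), 0.67 (SE 0.10) and 0.30 (SE 0.15), and of these 3 only Tnfrsf12a was called. Tnfrsf10b, the TRAIL death receptor of the mouse, rose to 2.30 times its WTK level and the decoy receptors Tnfrsf23 and Tnfrsf22 by 1.24 (SE 0.28) and 0.63 (SE 0.20) on the log2 scale, the call of Tnfrsf22 being lost without IgGK library 1. Tnfrsf1a rose from 51.3, 51.1 and 50.3 normalised CPM in WTK to 93.3, 99.6 and 89.6 in IgGK, with the smallest SE of the 28 called members (log2 fold change 0.89, SE 0.06, edgeR adjusted p = 2.03e-07), and was 0.59 (SE 0.06) above WTK in LepK.

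Tnfrsf21 was the exception. It fell from 444, 568 and 504 normalised CPM in WTK to 281, 260 and 269 in IgGK, with 408, 251 and 366 in LepK. IgGK lay below every WTK library, while the LepK libraries were spread around it, from below to above. The log2 fold change was -0.90 (SE 0.15, edgeR adjusted p = 0.000194) for IgGK and -0.56 (SE 0.15, edgeR adjusted p = 0.00861) for LepK, each against WTK, and both calls were lost when libraries were scaled by their totals alone. The call for LepK was also lost without WTK library 2 and without LepK library 2. Of 8 markers of the uninjured kidney tubule, 5 were called lower in IgGK and 4 in LepK, each against WTK, and 0 higher. In IgGK 7 had a log2 fold change below 0 and 1 above. In LepK 5 were below 0 and 3 above, 2 of these 3 without overlap between libraries. The part of these markers in the value of Tnfrsf21 was not tested. Ltbr also had lower values in all IgGK libraries than in any WTK library, but its log2 fold change of -0.24 (SE 0.06) was within the fold threshold, and it was 0.20 under the same scaling by totals.

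The 12 tested members without a call in IgGK against WTK were Fasl, Lta, Tnfsf10, Edar, Fas, Tnfrsf25, Ltbr, Tnfrsf8, Tnfrsf13c, Tnfrsf17, Tnfrsf11b (osteoprotegerin, the soluble trap of RANK ligand) and Tnfrsf26, a decoy receptor gene beside Tnfrsf22. Lta, Tnfrsf8 and Tnfrsf11b had log2 fold changes of 1.95 (SE 0.81), 2.05 (SE 0.96) and 1.13 (SE 0.49), and their groups overlapped. DESeq2 called Lta and Tnfrsf11b, with 29 members called higher and 1 lower, beside 22.2% and 16.2% of all genes. Fas, the classical death receptor, had overlapping values, at 10.7 to 13.4 normalised CPM in WTK, 11.2 to 13.0 in IgGK and 10.8 to 12.2 in LepK. For Tnfsf10 the ranges were 93.3 to 116, 80.2 to 105 and 82.9 to 87.2, so that WTK and IgGK overlapped. Fasl, the ligand of Fas on cytotoxic T cells, ran from 0.0395 to 0.772 over the 9 kidney libraries, and Edar, a receptor of skin appendage development, from 0.702 to 2.04. Among the pathway lists, 8 of 10 NF-kB genes (Relb 2.32, Tnfaip3 2.25 and Nfkbie 2.07 above WTK), 7 of 22 adaptors and kinases (Birc3 2.41, Ripk3 2.33 and Traf1 2.21) and 2 of 3 release genes (Rhbdf2 1.09 and Adam17 0.70) rose in IgGK, with only Chuk, a kinase of NF-kB signaling, called lower (-0.82). The 3 superfamily genes outside the name rule rose too (Relt 2.53, Ngfr 1.52 and Eda 0.86), as did 3 of 10 p53 targets (Cdkn1a 2.60, Phlda3 1.92 and Bbc3 1.79), while the p53 target Sesn2 fell (-0.56). Beside the 21.7% of all genes called higher, these were 80% of the NF-kB list, 31.8% of the adaptors and kinases and 30% of the p53 targets, with medians of 1.46, 0.19 and 0.04 against 0.04 for all genes. In LepL against IgGL, edgeR called 0 genes of these lists, with 7 adaptors and kinases lower and 1 higher at an unadjusted p under 0.05, and 2 NF-kB genes, 4 p53 targets, 1 release gene and 1 gene outside the name rule lower. DESeq2 called 1 adaptor or kinase in each direction, 1 p53 target and 1 gene outside the name rule lower, and 0 NF-kB and 0 release genes.

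Promoters of the members were searched for the NF-kB consensus on both strands, because this factor lies below most receptors of the family. RefSeq promoters (GRCm38.p6, from 250 bases before to 50 after the start) were at hand for 33 of the 43 members in 37 entries. The consensus occurred in 4 entries (10.8%), beside 8.46% of 32851 promoters in the table, and in 0 of the 8 members called lower in LepK than in IgGK. The members called in any comparison that held it were Ltb and, at a second start site, Tnfrsf9, and both are shown because they rose after folic acid. Capitals mark the consensus, which in Ltb lies on the reverse strand with its first letter 87 bases upstream of the start (chr17:35194257-35194556, plus strand) and in Tnfrsf9 as overlapping matches from 43 bases upstream (chr4:150927749-150928048, plus strand). A match in letters is no evidence of a bound site, and its absence in this window says nothing of NF-kB elsewhere.
Ltb: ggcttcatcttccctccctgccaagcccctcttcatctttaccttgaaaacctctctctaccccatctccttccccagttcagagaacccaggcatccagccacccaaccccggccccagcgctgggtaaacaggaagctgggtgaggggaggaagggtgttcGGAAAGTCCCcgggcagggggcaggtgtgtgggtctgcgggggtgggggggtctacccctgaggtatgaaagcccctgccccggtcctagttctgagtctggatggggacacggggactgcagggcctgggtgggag
Tnfrsf9: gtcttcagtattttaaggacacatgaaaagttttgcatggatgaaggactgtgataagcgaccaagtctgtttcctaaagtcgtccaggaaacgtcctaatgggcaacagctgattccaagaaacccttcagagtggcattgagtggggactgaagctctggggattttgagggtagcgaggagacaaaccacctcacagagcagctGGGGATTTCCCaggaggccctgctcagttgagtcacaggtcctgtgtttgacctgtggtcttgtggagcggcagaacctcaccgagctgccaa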

How the data were processed

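Poly(A)-selected, non-directional RNA-seq libraries of 9 kidneys and 6 lungs were analysed, with groups taken from the GEO labels. The authors deposited raw counts per gene and library in 1 table with gene coordinates; per the submitters' processing notes the build was GRCm39 (mm39) and DESeq2 was used, and the aligner and counter are not given in the sources used here. The table's FPKM values and the authors' own columns of group means, log2 fold changes and p-values were not used. 

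Counts were fitted as deposited in edgeR 4.0.16 (R 4.3.3, quasi-likelihood test, filterByExpr with a minimum count of 10 and a total of 15, TMM): 1 fit of 9 kidney libraries, 1 of 6 lung libraries and 1 of 12 libraries for the difference between organs. Calls needed an absolute log2 fold change above 0.5 (not for the difference) and a Benjamini-Hochberg adjusted p under 0.05 over all genes tested. Normalised CPM are CPM on TMM-scaled library sizes. The fits were tested on simulated data. Alternatives were RLE scaling, library size alone, DESeq2 1.42.0, other filters, a replicate block, leaving out each library, no fold threshold, and only the 2 groups compared. One count was worth 0.0252 to 0.0415 normalised CPM. Intervals and floors cover counting error only.

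Members and lists were chosen with earlier results of these data known. Each member is named by role. Values per library and full statistics are given for members called in LepK against IgGK or LepL against IgGL. Other called members have part of these. Pathway genes called in LepK against IgGK are named, and some of those called in IgGK against WTK. Promoter sequences are from RefSeq (GRCm38.p6); coordinates of genes are those of the deposited table.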

Additional observations from a re-analysis of the deposited data

Results flagged for a closer look

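The antibody effect differed between kidney and lung for 5 members, by a test of the difference itself in edgeR, with adjusted p from 0.0139 to 0.0344. The log2 difference, kidney minus lung, was -1.37 for Tnfsf15, -1.53 for Tnfsf13, -1.57 for Tnfsf9, -0.84 for Tnfrsf1b and 0.61 for Ltbr. Of all genes tested in this fit, 7.12% passed the same threshold. Of the 12 fits without 1 library, Tnfsf15 was called in 12, Tnfrsf1b in 6, Tnfsf9 in 5, Ltbr in 4 and Tnfsf13 in 2; Tnfsf15 was the only one of the 5 called in all 18 alternative settings.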

How the results depend on the processing

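In IgGK against WTK the count of 28 called members stayed between 23 and 28 when 1 library was left out and was 27 with the replicate block; in LepK against WTK 18 became 16 to 19. The 8 members called in LepK against IgGK became 2 to 8 with 1 library left out and 11 with the block, which kept all 8. With the block 6.31% of all genes tested were called lower and 4.50% higher. In LepL against IgGL the count of 1 became 7 with DESeq2, 11 without a filter on low counts and 0 with the block. It became 0 to 17 with 1 library left out. Of all genes tested there, 3.34% were called lower and 4.32% higher without a filter, and 0.0153% and 0.0051% with the block. The 5 members whose effect differed between organs became 8 with library size alone, 12 with DESeq2, 12 without a filter, 4 with the block and 1 to 15 with 1 library left out (15 without IgGL library 1, and 1 without IgGK library 2, LepK library 1 or IgGL library 2). In that fit the shares of all genes tested that were called above and below 0 were 3.51% and 3.62%. They were 1.16% and 9.16% with library size alone, 6.88% and 6.98% with DESeq2, and 2.93% and 4.19% without a filter. With the block they were 2.18% and 2.50%, and without IgGL library 1 they were 8.30% and 8.56%. Without IgGK library 2, LepK library 1 or IgGL library 2 they were at most 0.703% and 1.26%. The cause of these moves in the counts was not tested. Ltbr changed sign with library size alone, to 0.20 where IgGK was set against WTK and to -0.076 where LepK was set against IgGK; this scaling also gave all genes a median of -0.19 for LepK against IgGK and of -0.25 for the difference between organs. No called member changed sign in any setting. Signs were also counted over members called in no setting of a comparison, leaving out the 5 called in the difference between organs. The sign changed in at least 1 setting for 8 of 24 in LepK against IgGK and 9 of 21 in LepL against IgGL. Whether replicate numbers pair the samples was not settled. Same-numbered deviations in kidney correlated at -0.03 to 0.18, with 2 of 9 pairs above 0.1. Different-numbered ones ran from -0.19 to 0.04, with 0 of 18 above 0.1. The 2 pairs were IgGK with LepK libraries 1 (0.18) and 2 (0.165), while libraries 3 gave -0.03. In lung the ranges were -0.06 to 0.07 for the same number and -0.08 to 0.11 for different numbers. The block thus tests a shared number only. Depth limits members with few counts: Cd40lg and Tnfrsf8, with 67 and 88 counts over the kidney libraries, had log2 SEs of 1.23 and 0.96 in IgGK against WTK.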
